A study of Mus musculus with 4 samples.

Results

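The immediate-early transcription factor genes of the EGR, FOS and JUN families, with Ier2, were followed in mouse embryonic stem cells (mESC) in which Ogt had been deleted. Its product, O-GlcNAc transferase, attaches single N-acetylglucosamine sugars to intracellular proteins. The set was given by symbol as Egr1, Egr2, Egr3, Egr4, Fos, Fosb, Fosl1, Jun, Junb and Ier2, and all 10 were found among the 25239 gene symbols of the count tables. Egr4 was selected on its higher counts in the Ogt iKO libraries of this same comparison, so its values are given as a description with no test. The other 9 were listed by family, with earlier results of these data known.

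The libraries were of polyadenylated RNA, and every one came from mESC of the genotype Ogt fl/fl grown with LIF on mitomycin C-treated mouse embryonic fibroblasts. The Ogt iKO group held 2 libraries from cells given 4-OHT (4-hydroxytamoxifen, which activates recombinases fused to an oestrogen receptor domain) for 6 days, and the control group held 2 libraries from cells kept without 4-OHT for the same time. Live cells were separated from the feeders by flow cytometry with antibodies to CD90.2 and CD326, and in the 4-OHT cultures YFP+ cells were also selected. The labels name no recombinase driver and describe no cells given 4-OHT with Ogt intact, so the deletion, the ligand and the YFP selection cannot be told apart. Nothing in the labels says whether replicates were separate cultures, and the p-values measure only the spread between these libraries.

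Immediate-early genes are switched on by growth factors, serum or stress without a need for new protein synthesis. In the classical route ERK kinases phosphorylate ternary complex factors such as ELK1, which sit with serum response factor (SRF) on the promoters of Fos and Egr1, and CREB-family factors act through cyclic AMP response elements. EGR proteins bind GC-rich DNA through zinc fingers, whereas FOS and JUN proteins pair through leucine zippers to form the AP-1 factor. In mESC, FGF4 made by the cells themselves is the best known source of ERK activity.

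The promoters of Egr4, Fos and Jun are shown as those of the EGR, the FOS and the JUN gene with the largest difference among the 6 of 10 members that have a window in the RefSeq table used here. Each sequence runs 5′ to 3′ over the 250 bases before the annotated start in GRCm38.p6, and capitals mark matches to the motifs searched.
Egr4 promoter, chr6:85513590-85513839, minus strand: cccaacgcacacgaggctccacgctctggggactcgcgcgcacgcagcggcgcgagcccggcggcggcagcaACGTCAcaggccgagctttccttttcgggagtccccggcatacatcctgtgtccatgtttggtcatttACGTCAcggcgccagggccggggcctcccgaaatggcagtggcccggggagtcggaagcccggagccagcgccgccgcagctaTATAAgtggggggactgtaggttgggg
Fos promoter, chr12:85473640-85473889, plus strand: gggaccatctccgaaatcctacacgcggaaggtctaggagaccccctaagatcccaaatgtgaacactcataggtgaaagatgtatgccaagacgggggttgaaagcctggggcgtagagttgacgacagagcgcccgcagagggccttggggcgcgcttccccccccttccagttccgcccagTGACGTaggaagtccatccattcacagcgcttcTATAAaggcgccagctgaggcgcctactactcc
Jun promoter, chr4:95052223-95052472, minus strand: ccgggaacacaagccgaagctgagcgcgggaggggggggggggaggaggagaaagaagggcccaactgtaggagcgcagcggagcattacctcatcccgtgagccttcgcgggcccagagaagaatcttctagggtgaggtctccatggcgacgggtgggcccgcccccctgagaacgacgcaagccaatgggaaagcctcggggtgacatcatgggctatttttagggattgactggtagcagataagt

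Searched on both strands were the core of the cyclic AMP response element TGACGT, the AP-1 site TGACTCA, the EGR sites GCGTGGGCG and GCGGGGGCG, the CArG box bound by SRF, the ETS site CCGGAA and the TATA-box core TATAA. The Egr4 window held TGACGT at 178 and 110 bases before the start, both on the strand opposite to the printed one, so that the printed letters in capitals read ACGTCA, and TATAA at 27 bases before it. The Fos window held TGACGT at 66 bases and TATAA at 33 bases before the start. No match to the motifs searched lay in the Jun window. That window does hold the letters TGACATCA, which were not among those motifs. Sites further from the start than the windows reach were not searched for any gene, so a missing match is limited to these motifs and windows. Windows not printed held matches too. An Egr2 window held a CArG box at 72 bases and TGACGT at 56 bases before its start, and another held TATAA at 12 bases. The groups of Egr2 overlapped. The Fosb window held GCGGGGGCG at 50 bases before the start, and the Junb window held no match. TGACGT was found in 6.47% of all 32851 promoter windows of this length, TATAA in 22.8% and the CArG box in 1.47%. The motif letters were set after the windows had been read, and a match describes letters, not a bound site.

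Of Ogt itself, the deleted gene, 437 and 389 counts remained in Ogt iKO where the controls held 2963 and 3108. That is a level of 25.3 CPM ± 0.341 (SD, n = 2) against 197 CPM ± 7.91 (SD, n = 2), where CPM is counts per 1000000 after trimmed-mean (TMM) scaling. Total counts ran from 14668489 to 16504204. An upper limit of 3 counts was set for a count of 0 and taken as the detection limit, which stood for 0.175 to 0.196 CPM. Such limits cover counting error only. Of 15 mESC markers all were detected, and 14 were called lower in Ogt iKO, beside 32% of all tested genes. Calls used edgeR's quasi-likelihood test with a threshold of 0.05 on the adjusted p. Pou5f1 was at 532 CPM ± 60.3 (SD, n = 2) against 872 CPM ± 31.4 (SD, n = 2). The markers summed to 2992 and 3377 CPM in Ogt iKO and to 5281 and 5298 CPM in control. In such bulk RNA, a change in how many cells express a gene and a change in RNA per cell cannot be told apart.

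Egr1, Fos, Jun and Junb were higher in Ogt iKO, with the largest difference of these for Fos, while Ier2 was lower and Egr2 and Fosl1 were too low to test. Of the 7 tested members other than Egr4, 6 were higher and 1 was lower at an adjusted p under 0.05 (edgeR's quasi-likelihood test, Benjamini-Hochberg over 14525 genes). Across all tested genes 33.2% were higher and 32% were lower by the same rule, and 65.3% were called in either direction (4827 higher and 4651 lower, or 6116 and 3282 under scaling by total counts only). Egr3, Egr4 and Fosb reached the minimum count through the Ogt iKO libraries alone, which by itself selects for a difference. The members past the minimum in both groups were 5, of which 4 were higher and 1 was lower.

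**Figure D1:**
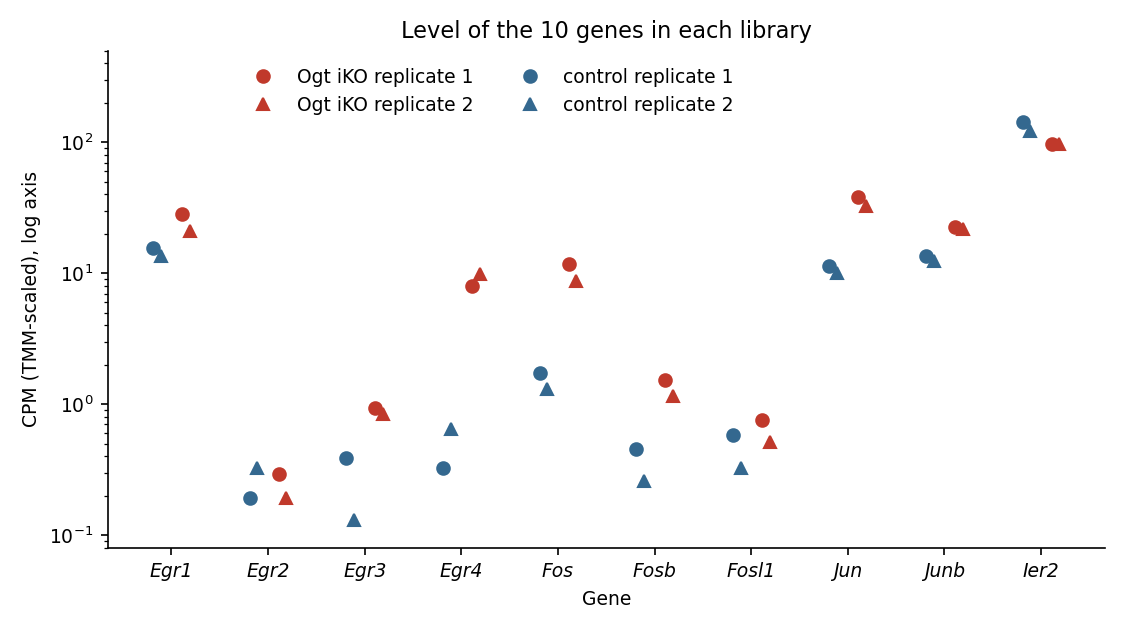
Level of each gene in CPM (TMM-scaled, log axis) in the 2 Ogt iKO libraries (red) and the 2 control libraries (blue), circles for replicate 1 and triangles for replicate 2. The red points lie above the blue ones for Egr1, Egr3, Egr4, Fos, Fosb, Jun and Junb, below them for Ier2, and among them for Egr2 and Fosl1.

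Among the EGR genes, Egr1, the founding zinc finger factor of the family and a common readout of ERK activity, lies on chromosome 18 from 34861207 to 34864956 in GRCm38. It had 487 and 328 counts in Ogt iKO and 241 and 209 in control, or 28.5 and 21.1 CPM against 15.6 and 13.6 CPM. Both Ogt iKO libraries were above both controls, although the lower of them exceeded the higher control by only 1.36 times. Egr1 rose by 0.77 on the log2 scale (SE 0.156, adjusted p 0.00255, edgeR's quasi-likelihood test). Without Ogt iKO replicate 1, the higher library, the log2 fold change was 0.54.

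Egr4, the smallest of the EGR transcripts by exon length (2148 bp), lies on chromosome 6 from 85511121 to 85513589. It encodes a zinc finger factor known mainly from neurons and germ cells. Its counts were 136 and 152 in Ogt iKO and 5 and 10 in control. These are 7.96 and 9.80 CPM against 0.323 and 0.652 CPM, so the groups lay far apart and the controls sat a few counts above the detection limit. The fitted log2 fold change of Egr4 was 4.16 (SE 0.313), and 42 tested genes, or 0.289% of all, had a larger one. From library to library the ratio ran from 12.2 to 30.3. In fits of 3 libraries the log2 fold change lay between 3.74, with control replicate 1 left out, and 4.74, with control replicate 2 left out.

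Egr3, an EGR factor studied in muscle spindles and lymphocytes, lies on chromosome 14 from 70077317 to 70082613. It had 16 and 13 counts in Ogt iKO and 6 and 2 in control. Its log2 fold change was 1.75 (SE 0.523, adjusted p 0.017, edgeR's quasi-likelihood test). Egr3 too passed the filter on low counts only through the Ogt iKO libraries, and with no filter the adjusted p was 0.0335 (edgeR). The call was lost in DESeq2 (adjusted p 0.178), and without control replicate 2 the log2 fold change was 1.17 (adjusted p 0.16, edgeR), so the call rested on the library with 2 counts. Egr2, known as Krox20 and needed for hindbrain patterning and myelination, lies on chromosome 10 from 67534469 to 67542188. It had 5 and 3 counts in Ogt iKO and 3 and 5 in control. Its groups overlapped and no difference was detectable at this depth.

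Per kilobase of exon, Egr1 was the most abundant EGR gene in all 4 libraries, with Egr4 closer behind it in Ogt iKO. Egr1 made up 92.2% and 87.6% of the summed EGR level (CPM per kb) in the controls and 61.4% and 49.5% in Ogt iKO. Egr4 went from 3.99% and 8.75% to 35.8% and 47.9%. In Ogt iKO replicate 2 the Egr4 level, 4.56 CPM per kb, was close to that of Egr1, 4.72 CPM per kb, at the lengths used. The exon length used for Egr1, 4484 bp, is longer than its RefSeq span given above. A shorter length would raise the level and share of Egr1 and widen its gap to Egr4. The summed EGR level was 3.77 and 3.47 CPM per kb in control and 10.3 and 9.53 CPM per kb in Ogt iKO. These shares are descriptions and include the gene that was picked for its rise.

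**Figure D2:**
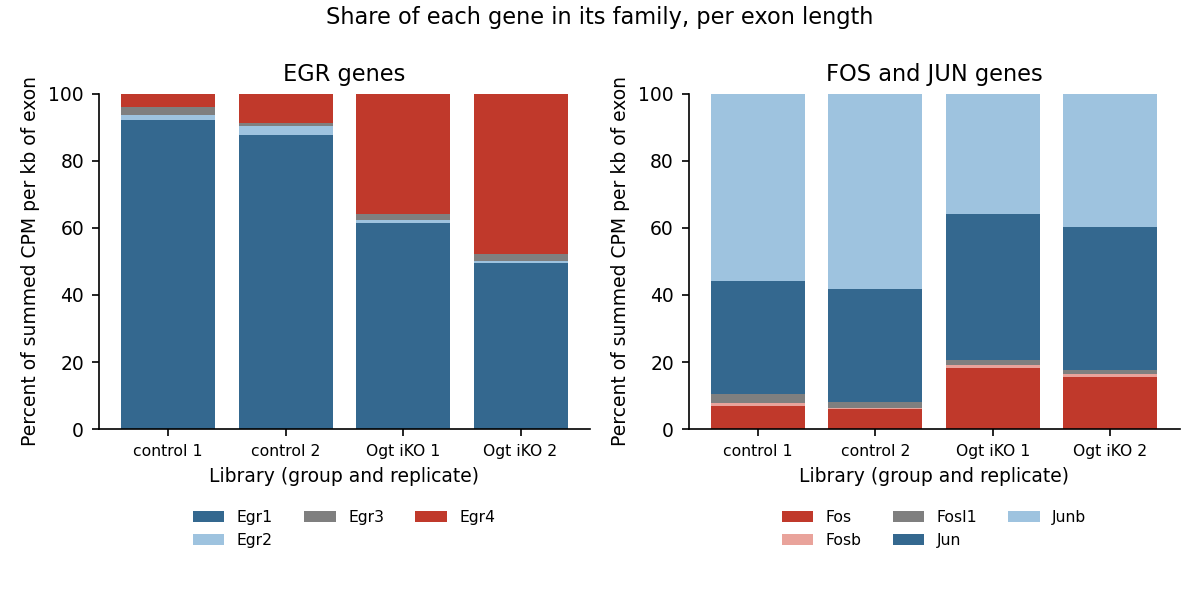
Stacked bars show each gene's percent of the summed level of its family (CPM per kb of exon) in the 4 libraries, with EGR genes on the left and FOS and JUN genes on the right. Egr4 takes 35.8% and 47.9% of the EGR level in Ogt iKO (3.99% and 8.75% in the controls), and Fos takes 18.4% and 15.7% of the FOS and JUN level against 7.02% and 5.95%.

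Among the FOS genes, Fos encodes the c-FOS subunit of AP-1 and lies on chromosome 12 from 85473890 to 85477274, just downstream of the promoter shown above. Its counts were 202 and 136 with 4-OHT and 27 and 20 without, or 11.8 and 8.77 CPM against 1.74 and 1.30 CPM. The groups were well apart, the lower Ogt iKO library lying 5.03 times above the higher control. Fos rose by 2.75 on the log2 scale (SE 0.25, adjusted p 3.18e-05, edgeR's quasi-likelihood test), a 6.73-fold difference that 1.72% of tested genes exceeded. With 1 library left out its log2 fold change stayed between 2.52 and 2.97.

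Fosb, a paralog of Fos, lies on chromosome 7 from 19302696 to 19310118. It had 26 and 18 counts in Ogt iKO and 7 and 4 in control. The fitted difference was 1.89 on the log2 scale (SE 0.426, adjusted p 0.00436, edgeR's quasi-likelihood test), in a gene that passed the filter on low counts only through the Ogt iKO libraries. With no filter the adjusted p was 0.00873 (edgeR), and DESeq2 did not call it (adjusted p 0.0698). Fosl1, which encodes the FRA1 protein, lies on chromosome 19 from 5447698 to 5455938 and had 13 and 8 counts against 9 and 5. Its groups overlapped and it did not pass the filter on low counts. Over its exon length, 57.2% lies under an exon of Ccdc85b on the opposite strand, so even these few reads are uncertain, since the strand setting of the counts is not given in the sources used here.

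Among the JUN genes, Jun encodes c-JUN, the AP-1 subunit activated by JNK, and is a gene of a single exon on chromosome 4 from 95049036 to 95052222. It had 648 and 505 counts in Ogt iKO and 176 and 154 in control, or 37.9 and 32.6 CPM against 11.4 and 10.04 CPM. Both Ogt iKO libraries were at least 2.86 times above either control. Jun rose by 1.72 on the log2 scale (SE 0.121, adjusted p 9.13e-06, edgeR's quasi-likelihood test), from 1.61 to 1.80 with 1 library left out. An antisense gene, Junos, covers 7.28% of its exon length.

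Junb encodes a JUN paralog that is the weaker activator and can oppose c-JUN, and lies on chromosome 8 from 84976909 to 84978748. It had 387 and 337 counts in Ogt iKO and 210 and 191 in control, or 22.6 and 21.7 CPM against 13.6 and 12.4 CPM. Junb rose by 0.77 on the log2 scale (SE 0.116, adjusted p 0.000473, edgeR's quasi-likelihood test), with both Ogt iKO libraries above both controls. Exons of Prdx2 on the opposite strand cover 7.52% of its exon length.

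Per kilobase of merged GENCODE exon, Jun and Junb changed places. The exon length used for Junb, 2301 bp, is longer than its RefSeq span given above. A shorter length would raise Junb, so the order of Jun and Junb in Ogt iKO depends on the length chosen. Junb was the most abundant of the 5 FOS and JUN members in control, with 55.8% and 58.1% of their summed level against 33.8% and 33.8% for Jun. In Ogt iKO, Jun took 43.4% and 42.9% and Junb 35.9% and 39.6%. Their levels in Ogt iKO were 11.9 and 10.2 CPM per kb for Jun and 9.84 and 9.44 CPM per kb for Junb, so that the lower Jun library and the higher Junb library lay closer together than the 2 Jun libraries did. Fos went from 7.02% and 5.95% of the sum to 18.4% and 15.7%, and Fosb and Fosl1 stayed under 3% in every library. The summed level of the 5 genes was 10.6 and 9.32 CPM per kb in control and 27.4 and 23.8 CPM per kb in Ogt iKO.

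Ier2, a small nuclear protein gene induced with Fos and Egr1 in serum responses, went the other way. It is a gene of a single exon on chromosome 8 from 84661331 to 84662852, and was the most abundant member per exon length in both groups, at 86.9 CPM per kb in control and 63.6 CPM per kb in Ogt iKO. Counts were 1665 and 1494 in Ogt iKO and 2193 and 1882 in control, or 97.4 and 96.3 CPM against 142 and 123 CPM. Both Ogt iKO libraries were below both controls. Ier2 fell by 0.45 on the log2 scale (SE 0.0763, adjusted p 0.000952, edgeR's quasi-likelihood test). Scaled by library totals alone, a setting that shifted the median of all genes from 0.024 to 0.19 on the log2 scale, Ier2 was at -0.28 and was still called.

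**Figure D3:**
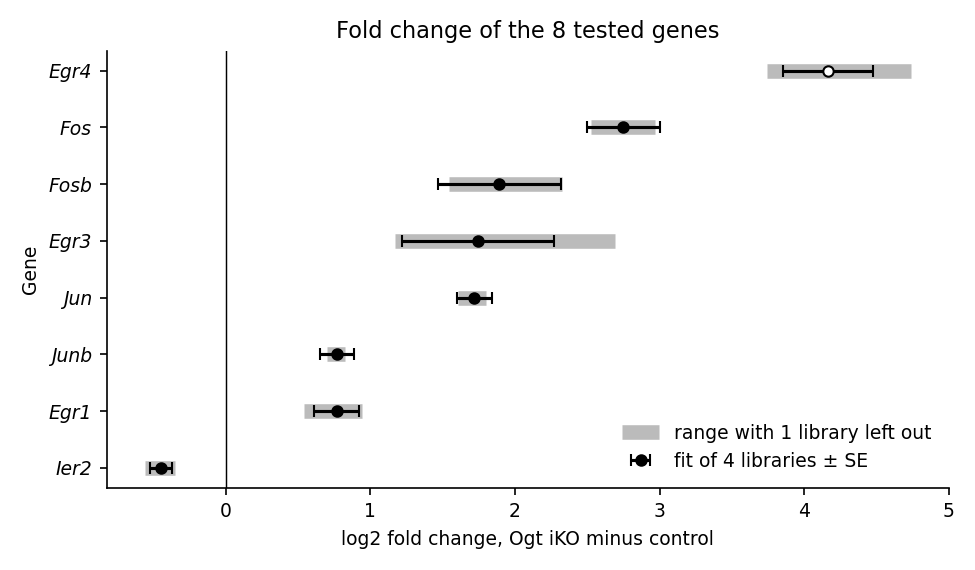
Points give the log2 fold change (Ogt iKO minus control) of the 8 tested members with its SE, and grey bars give the range when 1 library was left out. Egr4 (open point, described without a test) is at 4.16 and Fos at 2.75, Ier2 at -0.45 is the one member below 0, and the bar of Egr3 is the widest, from 1.17 to 2.69.

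Across the members, Ier2 had the highest level per kilobase of exon in every library. Next in Ogt iKO were Jun and Junb, whose order depends on the length used for Junb. Egr1 (6.35 and 4.72 CPM per kb), Fos (5.02 and 3.73) and Egr4 (3.70 and 4.56) came next in Ogt iKO. Fos overlapped with both of the others, and the lower Egr1 library exceeded the higher Egr4 library by less than the spread within either gene. In control Egr1 (3.47 and 3.04 CPM per kb) overlapped with Jun (3.57 and 3.15), while Fos (0.742 and 0.554) and Egr4 (0.150 and 0.303) were well below. The length used for Egr1, 4484 bp, is longer than its RefSeq span. Its overlap with Jun in control, and with Fos in Ogt iKO, and its gap to Egr4 depend on that length. Egr2, Egr3, Fosb and Fosl1 stayed under 0.4 CPM per kb in all 4 libraries.

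The groups lay apart for Egr1, Fos, Jun, Junb and Ier2, the 5 members past the minimum in both groups, as they did for 83.2% of tested genes (42.3% with Ogt iKO above, 40.9% with it below). Egr3, Egr4 and Fosb are not counted here, since they passed the minimum only in Ogt iKO. By the size of the difference, 20.2% of tested genes had a larger log2 fold change than Egr1 and 20.1% a larger one than Junb, against 6.61% for Jun and 1.72% for Fos.

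Of 30 tested genes on a list of other immediate-early genes, 15 were higher and 8 were lower, beside 33.2% and 32% of all tested genes. Their median log2 fold change was 0.24, against 0.024 for all genes. The lower ones numbered 5 under library totals and 5 against a fold of 1.2 (glmTreat). Ccn1 and Ccn2, secreted matricellular proteins and well known targets of SRF and YAP, rose most firmly. Ccn1 went from 33.7 and 34.7 CPM to 175 and 162 CPM (log2 fold change 2.30, SE 0.0702, adjusted p 2.86e-07, edgeR). Ccn2 had a log2 fold change of 2.23, the antiproliferative gene and p53 target Btg2 one of 1.75, and the kinase gene Plk2 one of 1.63. Sgk1, a serum- and glucocorticoid-induced kinase, fell by 1.40. Mcl1, a survival gene of the BCL2 family and the most abundant of the list, was at -0.22 (adjusted p 0.0122, edgeR), a call that was lost under library totals (-0.05) and without Ogt iKO replicate 1 (-0.16) or control replicate 1 (-0.20), as well as against a fold of 1.2 (glmTreat) and at an adjusted p under 0.01.

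Further genes of that list are named here after their values were seen, since they are close relatives or companions of the members. The relatives of Ier2 split, with Ier5 at 1.26 on the log2 scale, Ier3 at -1.04 and Ier5l at -0.37 (adjusted p 0.000391, 0.00274 and 0.00817, edgeR). The call of Ier5l was lost in DESeq2 (adjusted p 0.054), under library totals, without control replicate 1 and against a fold of 1.2 (glmTreat). Zfp36, which encodes an mRNA decay factor that acts on immediate-early transcripts, rose by 1.30. Myc fell by 0.70 and Klf10 by 1.35. Nr4a1, an orphan nuclear receptor often induced beside Fos and Egr1, was at 16.4 and 16.3 CPM against 13.0 and 14.8 CPM and was not called (adjusted p 0.133, edgeR), except under library totals (log2 fold change 0.40, adjusted p 0.0225, edgeR).

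Among 12 tested AP-1 relatives outside the set, 5 were higher and 0 were lower, beside 33.2% and 32% of all tested genes. At an adjusted p under 0.01 the higher ones numbered 3. The count of lower genes was 0 in edgeR and 0 in DESeq2, and 0 were lower at an unadjusted p under 0.05. Maf and Mafk, which encode a large and a small MAF protein, rose by 1.63 and 0.64. Fosl2, which encodes FRA2, rose by 1.48 (SE 0.169, adjusted p 0.000103, edgeR), from 5.43 and 6.58 CPM to 18.2 and 15.2 CPM. Jund, the JUN gene that is expressed without stimulation, was at 138 and 135 CPM with 4-OHT and at 130 and 123 CPM without it, and was not called (log2 fold change 0.11, adjusted p 0.138, edgeR). Under library totals it was called, at 0.28.

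Of 19 MAP kinase pathway genes, which carry the signal to these promoters, 3 were higher and 11 were lower, beside 33.2% and 32% of all tested genes. Against a fold of 1.2 (glmTreat) 1 was higher. The list's median log2 fold change was -0.22. Map2k2, which encodes MEK2, fell by 0.77, and Map2k1 and Mapk3, named after their values were seen, fell by 0.49 and 0.43. Of the 5 ribosomal S6 kinase genes on the list, whose products act downstream of MAP kinases, Rps6ka1, Rps6ka2, Rps6ka4 and Rps6ka5 were lower and Rps6ka3 was higher. Of these, Rps6ka1, Rps6ka4 and Rps6ka5 are named after their values were seen, and the call of Rps6ka5 (-0.43, adjusted p 0.0292, edgeR) was lost in DESeq2 (adjusted p 0.0992), under library totals, against a fold of 1.2, at an adjusted p under 0.01 and without Ogt iKO replicate 2 or control replicate 2. Rps6ka2 fell from 39.8 and 42.4 CPM to 3.92 and 5.09 CPM, and Rps6ka3 rose from 71.0 and 62.9 CPM to 180 and 156 CPM. Mapk14, the p38 alpha gene, was at -0.09 and not called, and its sign turned under library totals (0.08). These are transcript levels, and kinase activity was not measured.

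Of 14 genes for SRF, its partners and CREB-family activators, 4 were higher and 3 were lower, not above the shares of 33.2% and 32% over all tested genes. Their median log2 fold change was 0.003. The coactivator genes Crtc1, Crtc3 and Crebbp rose by 0.77, 0.99 and 0.47, and Crem, a CREB relative, rose by 0.89 (adjusted p from 0.000174 to 0.000787, edgeR). Creb1 was at 97.3 and 91.9 CPM against 98.9 and 95.2 CPM and was not called, with a sign that turned under library totals (-0.04 against 0.13). Ep300 was at 0.17 and not called, but was called under library totals (0.34) and without Ogt iKO replicate 2 (0.22) or control replicate 2 (0.24). Srf and Elk1, named after their values were seen, fell by 0.40 and 0.41.

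Nab1 and Nab2, corepressors that bind EGR proteins and are themselves EGR targets, rose together. Nab1 had 641 and 512 counts in Ogt iKO and 155 and 163 in control and rose by 1.77 on the log2 scale (SE 0.112, adjusted p 5.46e-06, edgeR). Nab2 had 453 and 358 counts against 96 and 100 and rose by 1.96 (SE 0.136, adjusted p 8.58e-06, edgeR). Their 4 libraries were ordered alike, with Ogt iKO replicate 1 highest. Of the 17 tested genes of the list of corepressors and known EGR or AP-1 targets, 7 were higher and 4 were lower, beside 33.2% and 32% of all tested genes, and the median was -0.16. Pdgfa rose by 1.43, the heme oxygenase gene Hmox1 by 1.66 and Spp1 by 0.38, whereas Vegfa, named after its values were seen, fell by 2.03. Without Ogt iKO replicate 1 the lower calls of this list numbered 9, and they numbered 2 without control replicate 2, under library totals, in DESeq2 and at an adjusted p under 0.01.

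**Figure D4:**
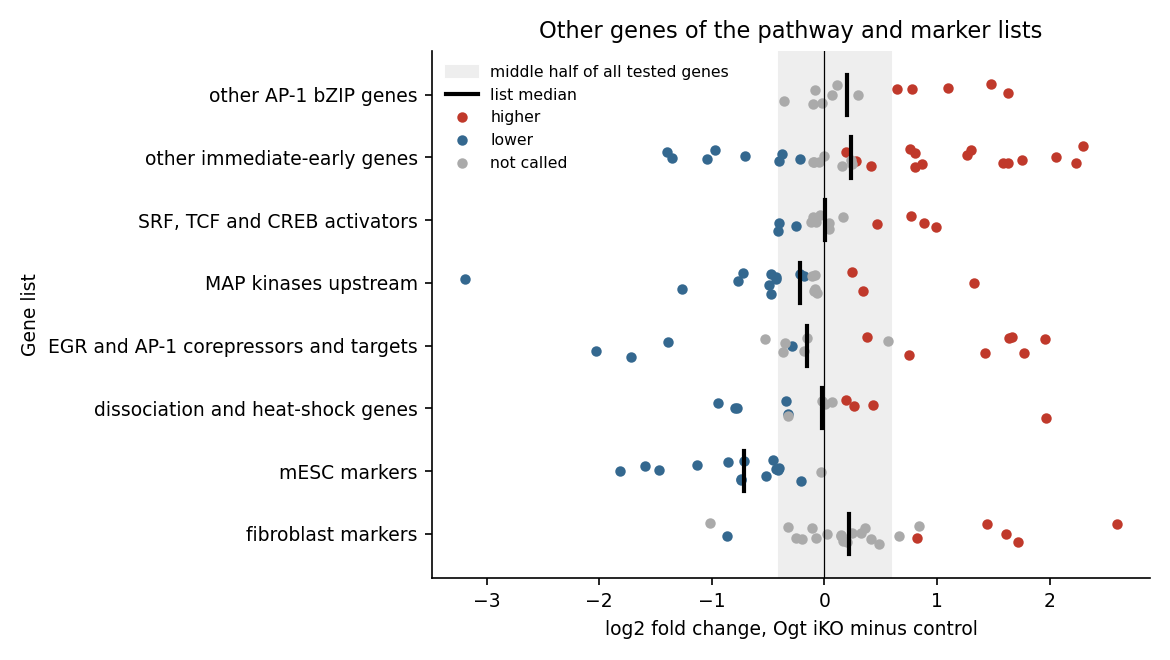
Each point is the log2 fold change (Ogt iKO minus control) of a tested gene on 1 of 8 lists, red where called higher, blue where called lower and grey where not called, with a black bar at the list median and a grey band over the middle 50% of all tested genes. MAP kinase genes lie mostly left of 0 (median -0.22), and the other immediate-early genes spread to both sides (median 0.24).

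Markers of feeder fibroblasts, which the sort was meant to remove and which can themselves express immediate-early genes, were measured beside the members. None of the 24 fibroblast markers was at 0 in all libraries, and their summed level was 5414 CPM in Ogt iKO replicate 1, 2476 CPM in Ogt iKO replicate 2, and 3062 and 3366 CPM in the controls. Col1a1, named after its values were seen, was at 904 and 180 CPM in Ogt iKO against 294 and 314 CPM in control. Of these 24 markers 5 were higher and 1 was lower in the fit of all libraries. Both counts were below the shares of 33.2% and 32% over all tested genes. Without Ogt iKO replicate 1 the log2 fold change of Col1a1 was -0.75, and without Ogt iKO replicate 2 it was 1.55. Tagln, Acta2 and Pdgfrb were among those higher in both Ogt iKO libraries. The lower one was Vim, named after its values were seen, at 255 and 156 CPM in Ogt iKO against 412 and 341 CPM in control. The other 18 markers were not called. When edgeR estimated the spread robustly, 3 markers were higher and 0 lower, and the calls of Acta2 (adjusted p 0.0773) and Sparc (adjusted p 0.0831) were lost.

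In Ogt iKO replicate 2 the summed fibroblast markers were at 0.77 of the control mean, below either control. In the same library Egr1 was at 1.45, Junb at 1.67, Jun at 3.04 and Fos at 5.75 of the control mean, each above both controls, and Ier2 was at 0.729, below both. With Ogt iKO replicate 1 left out, the log2 fold changes were 0.54 for Egr1, 1.61 for Jun and 2.52 for Fos. Every member but Egr4 was higher in Ogt iKO replicate 1, the library with more fibroblast signal, than in Ogt iKO replicate 2. Between the controls, all members but Egr2 and Egr4 were higher in replicate 1, the control with less fibroblast signal. The part of feeder RNA in the levels of the members was not tested.

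**Figure D5:**
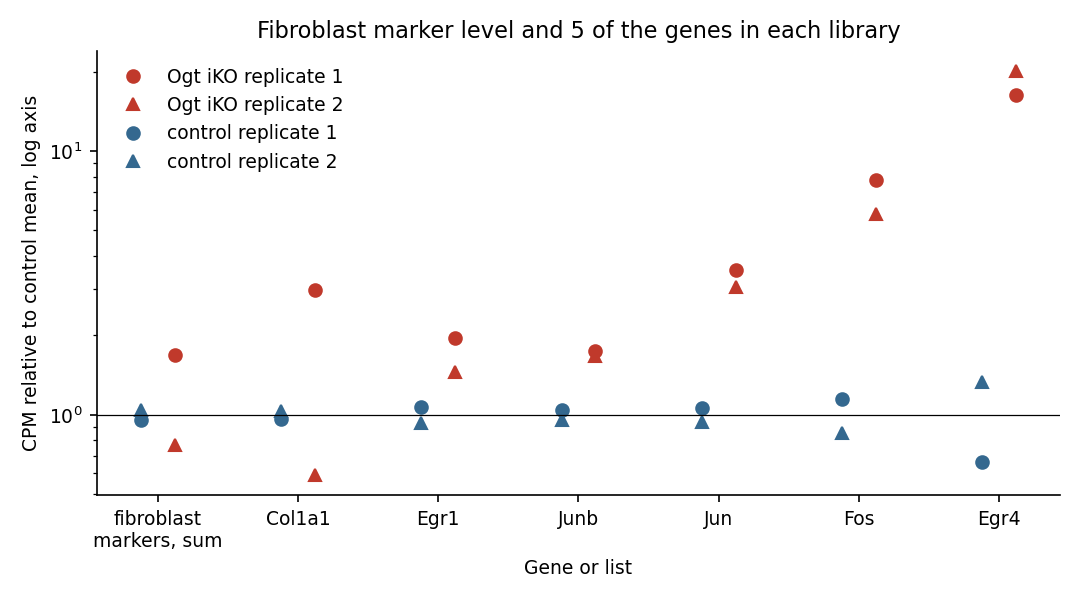
Level of the summed fibroblast markers, of Col1a1 and of 5 members in each library, as a ratio to the control mean (log axis), red for Ogt iKO and blue for control, circles for replicate 1 and triangles for replicate 2. The red triangle is below 1 for the fibroblast markers (0.77) and above 1 for Egr1 (1.45), Junb, Jun and Fos (5.75). Egr4 (20.1), picked for its rise, is shown as a description.

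Cell dissociation and sorting can induce Fos, Jun and Egr1 together with heat-shock genes, and 13 such companion genes were read for that reason. Of them 4 were higher and 5 were lower, shares close to the 33.2% and 32% of all tested genes, and their median log2 fold change was -0.02. The higher ones numbered 2 without control replicate 2 and 2 in DESeq2, and against a fold of 1.2 (glmTreat) 2 were higher and 3 were lower. Hspb1 rose by 0.43, whereas Hsp90ab1, Hsph1 and Hsp90aa1 fell by 0.79, 0.77 and 0.35 and Socs3, a feedback gene of LIF signalling, by 0.95. Hspa1a, named after its values were seen, had 18 and 24 counts in Ogt iKO and 7 and 3 in control, and passed the filter on low counts only through the Ogt iKO libraries. Its call (log2 fold change 1.97, adjusted p 0.00645, edgeR) was lost in DESeq2 (adjusted p 0.0675) and without control replicate 2 (adjusted p 0.063, edgeR). Its near-identical paralog Hspa1b, with 21 and 32 counts against 34 and 29, was at -0.32 and not called, and reads of the pair may be split uncertainly. The part of sorting in the levels of the members was not tested.

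The genes whose pattern over the 4 libraries came closest to that of a member were sought among 11223 genes whose mean log2 CPM was 2 or more, by Euclidean distance between centred log2 CPM values. Closest to Egr4 were Clic5, Neurog3 and Sh3rf2, at distances of 0.443, 0.800 and 0.823. None of these 3 matched the difference of Egr4, with log2 fold changes of 3.84, 3.38 and 3.27. Closest to Fos were Tagln, Dazl and Nefm (0.164 to 0.223), and closest to Egr1 were E130317F20Rik, Dap and Kalrn (0.037 to 0.079). Jun lay nearest to Gdpd1, Mfhas1 and Prrx2 (0.015 to 0.045). With 4 libraries in 2 groups such distances describe little beyond the size of a difference and the order within groups.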

How the data were processed

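The authors deposited a table of raw counts per gene symbol for each of the 4 libraries, with 0 rows that name no gene. The submitters' processing notes name STAR, Picard and the genome build mm10. Versions, annotation, strand setting and the handling of multi-mapped reads are not given in the sources used here. Libraries were grouped by their titles.

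Counts were tested in 1 fit of all 4 libraries by the quasi-likelihood test of edgeR 4.0.16 (R 4.3.3, TMM scaling, filterByExpr with a minimum count of 10, no covariate), and p values were adjusted by Benjamini-Hochberg over the 14525 genes tested. SE is the log2 fold change over the root of its F statistic. Alternatives included DESeq2 1.42.0. The test was checked on simulated counts. Counts covered totals of 14668489 to 16504204, and low genes are limited by counting error.

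Positions came from RefSeq and exon lengths and overlaps from GENCODE M21, both on GRCm38, the assembly that mm10 names. The merged exon lengths of Egr1 and Junb are well above their RefSeq spans, which lowers their levels per kilobase. The members and lists were chosen with earlier results of these data known. The text names the members, Ogt, up to 4 called genes per list by smallest adjusted p, its 2 most abundant genes, the 3 genes most like Egr4, Egr1, Fos and Jun, and genes marked as named after their values were seen. Not every gene picked by this rule is reported here.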

Additional observations from a re-analysis of the deposited data

How the results depend on the processing

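Under the 13 alternatives to the reported fit, Egr1, Fos, Jun and Junb were called higher and Ier2 lower each time, and every tested member kept its direction in each fit that tested it. With Egr3 and Fosb, which passed the filter only through Ogt iKO, the higher members numbered 4 to 6. Leaving out 1 library gave 5 to 6 higher members, and from 3943 to 4780 higher and 3940 to 4722 lower genes overall. Under library totals alone 6116 genes were higher and 3282 were lower, a split of called genes that favours higher calls. Egr3 was called in neither DESeq2 (adjusted p 0.178) nor at an adjusted p under 0.01, and Fosb was not called in DESeq2. Without a filter on low counts Egr2 was at -0.10 (adjusted p 0.932, edgeR) and Fosl1 at 0.48 (adjusted p 0.482, edgeR).

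Signs turned under library totals for Atf2 (0.065 against -0.10), Creb1 (0.133) and Mapk14 (0.077), none of them called, and without Ogt iKO replicate 1 for Hspa1b (0.019, not called) and Col1a1 (-0.75, against 1.549 without Ogt iKO replicate 2). The cause was not tested. With the replicate number as a block, log2 fold changes were 0.76 for Egr1, 2.75 for Fos, 1.72 for Jun and -0.45 for Ier2, and no member gained or lost its call. The correlation of replicate differences between groups was 0.086 across 14525 genes, and the numbers were not taken to pair the libraries. Counting error limits Egr2, Egr3, Fosb, Fosl1 and the control level of Egr4.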
